A study of Mus musculus with 947 samples.

Results

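Skin and the small intestine are the barrier tissues of a mouse small RNA atlas, and their small RNAs were compared in the 41 skin and 44 small intestine libraries of mice aged 3 to 27 months. Members were chosen by tissue and age alone, which gave 85 of the 768 libraries of the aging cohort used and 85 of the 947 libraries of the whole series; 1 skin library (a male of 21 months) was left out by the rule. All mice were untreated C57BL/6JN animals, either males or virgin females, with no transgene and no induced deletion. Skin libraries came from 29 males and 12 females, small intestine libraries from 31 males and 13 females, at 9 ages spaced 3 months apart. Each tissue had 1 to 6 libraries an age, with no females at 24 and 27 months in either tissue and 1 skin library, a male, at 21 months. The skin is dorsal skin of shaved mice and the small intestine is duodenum, both frozen after the mice had been perfused through the heart with PBS. Each library is bulk tissue, so epithelium, stroma, muscle, fat and blood cells are read together. In bulk samples, fewer cells of a type and less RNA per cell cannot be told apart. The labels do not say which skin and intestine came from the same mouse.

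A miRNA is a short RNA that pairs with mRNAs through its seed, the bases near its 5′ end, and lowers their translation or stability. The skin surface is a stratified epithelium, in which keratinocytes leave a basal layer and cornify. miR-205 is known from basal keratinocytes and miR-203 from those that have left the basal layer, where it restrains the stemness factor p63. The duodenum is lined by a single layer of columnar cells that is renewed from crypts, and miR-192, miR-194, miR-215 and miR-802 are known as intestinal and hepatic miRNAs, called the intestinal miRNAs here. The miR-200 family is shared by epithelia, where it keeps the cells epithelial by restraining Zeb1 and Zeb2. Beneath both epithelia lies a stroma, rich in fibroblasts in skin and in smooth muscle and neurons in the gut wall.

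Mature sequences of the miRNAs on which the comparison turns are shown with the seed, bases 2 to 8, in capitals; they were read from RefSeq (GRCm38.p6), where 480 of the 584 tested miRNAs had an entry by name. The miRNAs that were higher in skin are shown first.
miR-205-5p: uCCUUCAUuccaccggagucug
miR-203-3p: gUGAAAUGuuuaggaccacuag
miR-206-3p: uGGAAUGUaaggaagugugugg
miR-193b-3p: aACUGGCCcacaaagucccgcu
miR-99a-5p: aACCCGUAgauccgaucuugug
miR-211-5p: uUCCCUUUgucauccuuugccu
Those higher in small intestine follow, with those of the miR-200 family below them.
miR-192-5p: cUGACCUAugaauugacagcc
miR-215-5p: aUGACCUAugauuugacagac
miR-194-5p: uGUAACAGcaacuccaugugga
miR-802-5p: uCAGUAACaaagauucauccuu
miR-31-5p: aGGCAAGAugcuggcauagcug
miR-200b-3p: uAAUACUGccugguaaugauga
miR-200c-3p: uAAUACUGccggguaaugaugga
miR-429-3p: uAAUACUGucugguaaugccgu
miR-200a-3p: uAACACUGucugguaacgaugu
miR-141-3p: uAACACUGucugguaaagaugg
The last 3 come from the imprinted Dlk1-Dio3 locus of chromosome 12 and carry the age and sex differences described further on.
miR-127-3p: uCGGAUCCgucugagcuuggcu
miR-376b-3p: aUCAUAGAggaacauccacuu
miR-411-3p: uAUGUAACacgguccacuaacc
miR-192-5p and miR-215-5p share a seed. The miR-200 family splits into a seed shared by miR-200b-3p, miR-200c-3p and miR-429-3p and another shared by miR-200a-3p and miR-141-3p. Among the tested miRNAs with a RefSeq entry by name, no other shares the seed of miR-205-5p (chr1:193507503-193507524, minus strand), miR-203-3p (chr12:112130927-112130948, plus strand) or miR-206-3p (chr1:20679055-20679076, plus strand). Tested miRNAs without such an entry were not compared by seed, so partners among them would be missed. miR-215-5p (chr1:185313610-185313630) lies beside 1 copy of miR-194-5p (chr1:185313325-185313346), and miR-192-5p (chr19:6264857-6264877) beside the other (chr19:6264658-6264679), all on the plus strand.

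Depth ran from 6.53 to 40.2 M mapped reads in skin (M for 1000000; median 26.003) and from 9.08 to 40.4 M in small intestine (median 20.03). All 85 libraries were nearest to their own tissue of the 16 by Spearman correlation, whereas the skin library left out was nearest to liver. Libraries of both tissues were present on 8 of the 10 preparation plates. In small intestine 4 libraries stood apart, all from males, 3 at 21 months and 1 at 27 months. The summed level of their 9 intestinal miRNAs was 16878 to 35952 reads per 1000000 mapped reads (rpmm), against a median of 128895 rpmm in the other 40, of which the lowest was 54849 rpmm. Their summed fibroblast miRNAs (7290.0 to 12147 rpmm, against a median of 5912 rpmm in the others) and white cell miRNAs (8018 to 14216 rpmm, against a median of 6829 rpmm) were towards the upper end or above the range of the rest. The 4 highest rRNA shares of the tissue (34.1 to 56.9%, next highest 29.8%) likewise came from 3 males of 21 months and 1 of 27 months. Its highest summed signals, 2223780 and 3405230 rpmm (median 1698220 rpmm), came from males of 21 months. Whether RNA or library quality set these libraries apart was not tested. In skin 1 library of 15 months held 1716 rpmm of intestinal miRNAs, where the next highest held 621 rpmm.

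Of 584 miRNAs tested, 77 were higher in skin (13.2%) and 110 were higher in small intestine (18.8%), at an adjusted p under 0.05 and a log2 fold change of at least 1 in size (limma on log2(rpmm + 1), age and sex in the model). The ranges of the libraries did not overlap for 39 miRNAs (6.68%), 13 of them higher in skin and 26 higher in small intestine. The median log2 fold change, skin minus small intestine, was −0.17 over the miRNAs and −0.21 over all 3883 RNAs tested. That median depends on the scaling. When each library was scaled to its miRNA reads, it was 0.27 over miRNAs and the counts turned to 133 higher in skin and 65 higher in small intestine. Median-ratio scaling gave 0.01, with counts of 100 and 81, and edgeR on recovered reads called 179 and 101. Large differences such as those of miR-205-5p or miR-215-5p far exceed this shift, while those near a log2 fold change of 1 do not. Set beside the median levels of the other 14 tissues of the cohort (603 libraries at these ages), skin was highest for 7 of its 77 and small intestine for 26 of its 110.

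Keratinocyte miRNAs separated the tissues completely. The level of miR-205-5p, the basal keratinocyte miRNA, was 6965 to 38412 rpmm in skin (median 17791) and 6.21 to 108 rpmm in small intestine (median 18.2). Every skin library therefore lay above every intestinal one, and the log2 fold change was 9.76 ± 0.16 (SE; adjusted p = 3.97e-68). In each of the 8 plates with both tissues it was 9.06 to 10.63, and the next highest tissue, kidney, had a median of 129 rpmm. miR-205-5p alone took up a median of 6.87% of the miRNA signal of a skin library. Its other arm, miR-205-3p, was at 10.8 to 38.9 rpmm in skin and at 0 to 0.118 rpmm in small intestine, a log2 fold change of 4.53 ± 0.07.

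miR-203, which is known to push keratinocytes out of the basal state, differed less, and the intestine also held it. miR-203-3p was at 3073 to 22058 rpmm in skin (median 5705) and at 142 to 1246 rpmm in small intestine (median 714). These ranges did not overlap, and the log2 fold change was 3.10 ± 0.12 (adjusted p = 1.62e-39). For miR-203-5p the levels were 135 to 899 rpmm in skin and 6.09 to 39.5 rpmm in small intestine, a log2 fold change of 3.45 ± 0.12. The arms of miR-203 were the only 2 miRNAs of the whole table whose median level in both barrier tissues was above that in each of the other 14 tissues, of which brown fat came next with 424 rpmm of miR-203-3p. All 4 listed keratinocyte miRNAs were called higher in skin, with a median log2 fold change of 3.99 beside −0.17 over all miRNAs. Their summed level was 10365 to 61408 rpmm in skin and 161 to 1294 rpmm in small intestine.

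The intestinal miRNAs were the mirror image, and they held the largest differences of the comparison. miR-215-5p was at 2.33 to 530.1 rpmm in skin (median 11.3) and at 1999 to 85644 rpmm in small intestine (median 44513). No library of one tissue reached into the range of the other, and the log2 fold change was −11.23 ± 0.30 (adjusted p = 3.18e-51), within −11.88 to −10.41 on the 8 plates. Gonadal fat, next to small intestine, had a median of 38.2 rpmm. miR-192-5p, which has the same seed, was at 54.2 to 904 rpmm in skin (median 112) and at 11967 to 99563 rpmm in small intestine (median 52367), a log2 fold change of −8.74 ± 0.15 (adjusted p = 7.74e-66). Unlike miR-215-5p it was also abundant in liver, with a median of 26999 rpmm.

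miR-194-5p, encoded next to both, was at 10.2 to 226 rpmm in skin and at 984 to 26790.5 rpmm in small intestine, a log2 fold change of −8.97 ± 0.20 (adjusted p = 6.72e-58). miR-802-5p, known from liver, pancreas and gut, was at 0 to 8.04 rpmm in skin and at 29.8 to 760.3 rpmm in small intestine, with −7.56 ± 0.17. It was more abundant still in pancreas (median 2013 rpmm). The passenger arms moved with their partners. The log2 fold change was −10.44 for miR-215-3p, −7.56 for miR-192-3p, −7.27 for miR-194-1-3p, −6.89 for miR-802-3p and −3.96 for miR-194-2-3p. All 9 listed intestinal miRNAs were called higher in small intestine, none with overlapping ranges, and their median log2 fold change was −7.56. The lowest intestinal library, 1 of the 4 that stood apart, held a summed 16878 rpmm of them, well above the 1716 rpmm of the highest skin library.

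**Figure D1:**
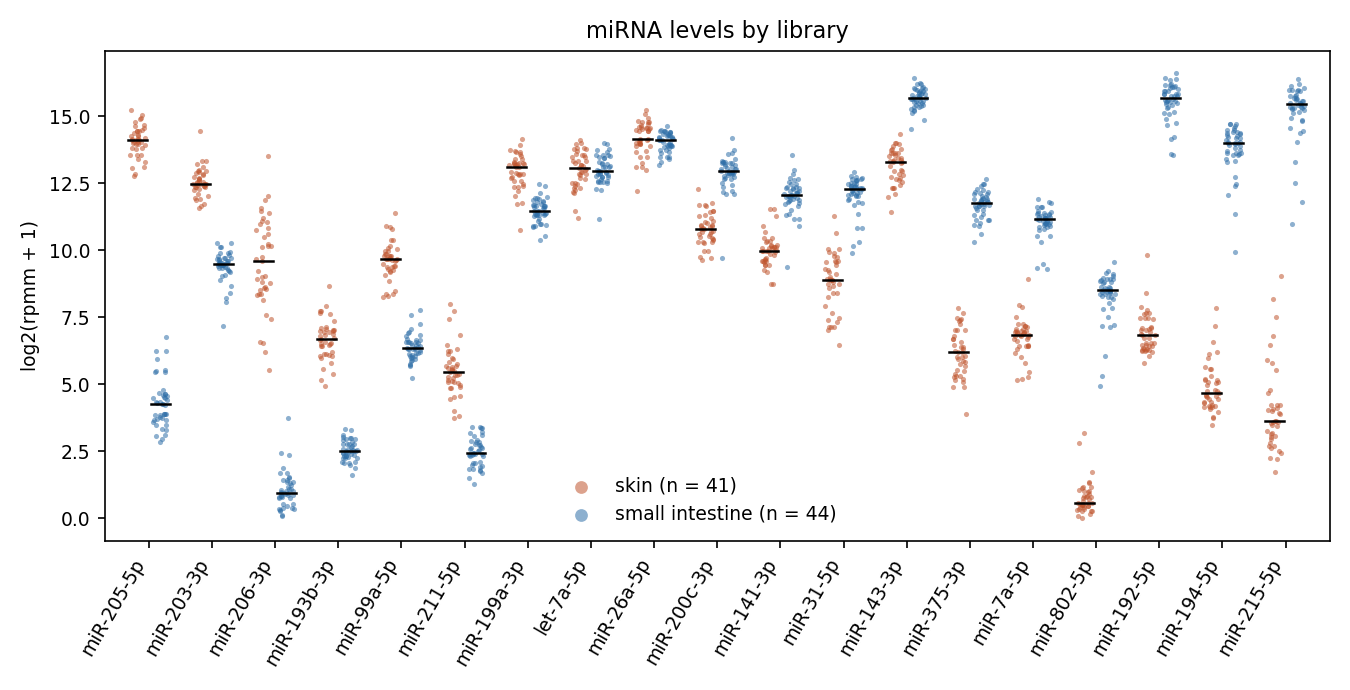
Levels of 19 miRNAs by library, as log2(rpmm + 1), in skin (41 points, left of each pair) and small intestine (44 points, right of each pair); the black bars are medians. miR-205-5p and miR-206-3p on the left and miR-192-5p, miR-194-5p and miR-215-5p on the right show a wide gap between the tissues, whereas let-7a-5p and miR-26a-5p lie at the same height.

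The miR-200 family was present in both tissues and was higher in small intestine. Whether the epithelial share of the tissues differed was not tested. miR-200c-3p, the most abundant member in the intestine, was at 787 to 4983 rpmm in skin (median 1787) and at 835 to 18765 rpmm in small intestine (median 7843). The ranges overlapped, and the log2 fold change was −2.15 ± 0.13 (adjusted p = 7.26e-27), −2.53 to −0.86 on the 8 plates. miR-429-3p had medians of 1851 and 7366 rpmm in skin and intestine (log2 fold change −2.13), miR-141-3p of 1008 and 4291 rpmm (−2.08) and miR-200b-3p of 555 and 2145 rpmm (−1.87). Members of both seeds thus differed by a like amount, and all 10 listed members were called higher in small intestine, with a median of −2.23. The 4 intestinal libraries that stood apart had a summed 3383 to 15818 rpmm of the family, against 13489 to 42079 rpmm in the other 40, so they reached into the skin range of 2545 to 11617 rpmm. By contrast, the miR-183 cluster, known from sensory cells and sensory neurons, had 1 called member of 5 tested, miR-182-5p at 115 to 880.5 rpmm in skin and 37.4 to 305 rpmm in small intestine (log2 fold change 1.01), and a median of 0.27, and none was called with plate as a covariate or without the 4 intestinal libraries that stood apart.

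Endocrine miRNAs were far higher in the intestine, whose epithelium holds hormone-releasing cells. miR-375-3p, known from islets and enteroendocrine cells, was at 13.8 to 229.8 rpmm in skin (median 71.8) and at 1249.55 to 6454 rpmm in small intestine (median 3483). The ranges lay apart, with a log2 fold change of −5.59 ± 0.13 (adjusted p = 9.55e-57), although pancreas had more (median 11621 rpmm). miR-7a-5p, an islet and neuronal miRNA, was at 34.6 to 480 rpmm in skin and at 630 to 3876 rpmm in small intestine, a log2 fold change of −4.31 ± 0.15. Its seed partner miR-7b-5p was at 0.165 to 2.76 and 28.7 to 218 rpmm, with −6.19 ± 0.11. All 3 tested members were called without overlap. The summed level of the exocrine pancreatic miRNAs was 0.0418 to 13.2 rpmm in small intestine and 0.0561 to 20.4 rpmm in skin, and neither of the 2 tested was called.

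Of the 8 tested miRNAs known from wounds and inflammation, 6 were higher in small intestine and none in skin, with a median log2 fold change of −2.26 (5 of 8 and −1.75 with miRNA-read scaling). miR-31-5p, known to be induced in wounded and psoriatic epidermis and in regenerating crypts, was at 86.6 to 2485 rpmm in skin (median 477) and at 947 to 7784 rpmm in small intestine (median 4996). The ranges overlapped, and the log2 fold change was −3.31 ± 0.18 (adjusted p = 6.79e-30). miR-147-3p, which is induced by inflammatory signals, was at 0.832 to 17.9 rpmm in skin and at 10.3 to 130.1 rpmm in small intestine, with −3.97 ± 0.17. The others called were miR-212-3p (−2.76), miR-31-3p (−2.63), miR-132-3p (−1.89) and miR-21a-3p (−1.35), whereas miR-21a-5p, the abundant arm of miR-21a, had −0.96 and was not called.

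Stromal and muscle miRNAs divided by the kind of muscle. The smooth muscle pair miR-143 and miR-145a was higher in the intestine, whose wall has circular and longitudinal muscle coats. miR-143-3p was at 2768 to 20751 rpmm in skin (median 9908) and at 23663 to 87402 rpmm in small intestine (median 52278). No ranges overlapped for it, with a log2 fold change of −2.52 ± 0.11 (adjusted p = 2.94e-35). miR-145a-5p had medians of 899.9 and 4253 rpmm (−2.37), and all 4 listed arms were called higher in small intestine (3 of 4 with miRNA-read scaling).

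Striated muscle miRNAs were higher and very uneven in skin, which in mice lies on a thin muscle sheet, the panniculus carnosus. miR-206-3p, a skeletal muscle miRNA, was at 45.1 to 11616 rpmm in skin (median 766) and at 0.0759 to 12.3 rpmm in small intestine (median 0.921). Those ranges were separate, and the log2 fold change was 8.41 ± 0.26 (adjusted p = 2.2e-46). miR-1a-3p was at 261 to 29335 rpmm in skin (median 3268) and at 105 to 625 rpmm in small intestine (median 319), which overlap, with 3.75 ± 0.23. miR-133a-3p had medians of 5758 and 681 rpmm (3.13) and miR-133b-3p of 1724 and 183 rpmm (3.22). Limb muscle, where the medians were 159386 rpmm of miR-1a-3p and 1858 rpmm of miR-206-3p, held far more miR-1a-3p and only somewhat more miR-206-3p than skin. Of the 10 listed, 6 were called higher in skin and none in small intestine. The summed level was 925 to 79900 rpmm in skin and 522 to 4408 rpmm in small intestine, so skin libraries differed widely in muscle signal. With the log2 of this sum as a covariate (a setting chosen after the data had been seen), 40 miRNAs were higher in skin and 176 in small intestine, and miR-133a-3p, miR-133b-3p and miR-1a-3p, which are part of the sum, had −0.45, −0.26 and 0.39. miR-205-5p, miR-203-3p and the intestinal miRNAs stayed called in the same direction. The sum was itself higher in skin on all 8 plates with both tissues, by 2.42 to 4.47 on the log2 scale. The covariate therefore also takes up other differences between the tissues, and with it the median log2 fold change over all miRNAs was −0.55.

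Fibroblast miRNAs were higher in skin, where the dermis is dense in collagen-making cells. miR-199a-3p was at 1737 to 18152 rpmm in skin (median 8740.3) and at 1339 to 5596 rpmm in small intestine (median 2817), an overlap with a log2 fold change of 1.47 ± 0.12 (adjusted p = 1.17e-19). miR-199b-3p has the same mature sequence and nearly the same values, so the pair counts as 1 measurement. With the striated muscle sum as a covariate miR-199a-3p had 0.78 and was not called, but that sum differs between the tissues and takes up part of their difference. Of 10 listed, 7 were called higher in skin and none in small intestine, with a median of 1.12. The 7 include both miRNAs of that pair, and miR-127-3p (1.03), which comes from the Dlk1-Dio3 locus. Summed fibroblast levels were 4445 to 39683 rpmm in skin and 3360 to 12147 rpmm in small intestine, the upper end of the latter being set by the libraries that stood apart.

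Blood, vessel and nerve miRNAs went in both directions. Red cell miRNAs had 3 of 7 called higher in skin and none in small intestine (median 0.76), with miR-451a at medians of 222 and 80.3 rpmm (1.44). White cell miRNAs had 2 of 9 called, both higher in small intestine, a count near the 18.8% of all miRNAs called higher there. They were the arms of miR-142a, which are found in all leukocytes (−1.75 for miR-142a-3p, with medians of 508 rpmm in skin and 1582 rpmm in intestine). The white cell median of −0.06 became 0.59 with miRNA-read scaling, so the direction of the list as a whole depends on the scaling. Both arms of the endothelial miR-126a were not called (median −0.79). Of 4 tested nerve miRNAs, miR-9-5p (medians 41.4 and 138 rpmm, −1.72) and miR-124-3p (109 and 236 rpmm, −1.24) were called higher in small intestine, and the median of the list was −1.12 (3 of 4 called with plate as a covariate, 1 of 4 with miRNA-read scaling). Neither of the 2 liver miRNAs was called.

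Fat miRNAs went both ways, with 3 of 8 higher in skin and 4 higher in small intestine. The ones higher in skin were miR-193b and miR-365, which are transcribed together and known from brown fat. miR-193b-3p was at 29.7 to 409 rpmm in skin (median 101) and at 2.09 to 9.17 rpmm in small intestine (median 4.69). Its ranges lay apart, with 4.15 ± 0.13 (adjusted p = 1.04e-46), and brown fat had a median of 697 rpmm. Against these stood miR-378a-3p, encoded within Ppargc1b, with medians of 3656 rpmm in skin and 12189 rpmm in small intestine (−1.79 ± 0.16).

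Families that share a seed did not always go the same way. miR-10b-5p, encoded in the HoxD cluster, had medians of 224 rpmm in skin and 41.4 rpmm in small intestine (log2 fold change 2.35), while miR-10a-5p, from HoxB, had 140.3 and 381 rpmm (−1.35) with the same seed. Of the 7 tested Hox miRNAs 3 were called higher in skin and 2 in small intestine (4 and 0 with miRNA-read scaling), miR-196a-5p (2.14) being among those higher in skin. miR-708-5p (162 to 2705 rpmm in skin, 28.1 to 345 rpmm in intestine, 2.87) and miR-28a-5p (−1.41) share a seed and were called in opposite directions. The miR-148 and miR-152 seed also split, with miR-148a-3p (−1.69) and miR-148b-3p (−1.11) higher in small intestine and miR-152-3p (1.18) higher in skin. miR-28a-5p and the members of the miR-148 seed were chosen after their values had been seen.

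The seeds below had no members called in opposite directions. miR-211-5p, encoded in Trpm1 and known from melanocytes, was at 12.3 to 252 rpmm in skin (median 42.4) and at 1.40 to 9.74 rpmm in small intestine (median 4.40). Its ranges were separate, with 3.01 ± 0.16 (adjusted p = 2.03e-29). miR-204-5p, its seed partner and also named after its values had been seen, had medians of 222 and 38.6 rpmm (2.35). Within the miR-125 and miR-99 families 2 of 5 were called higher in skin and none in small intestine. Of these miR-99a-5p was at 301 to 2706 rpmm in skin (median 811) and at 36.7 to 218 rpmm in small intestine (median 80.9), separate ranges with 3.31 ± 0.13 (adjusted p = 2.9e-39), and miR-125b-5p had 1.86. The passenger arms miR-99a-3p (2.92) and miR-125b-2-3p (3.11) from the same transcript followed. The seed partners miR-100-5p (0.77), miR-99b-5p (0.22) and miR-125a-5p (0.49) were not called.

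Growth and housekeeping families hardly separated the tissues. None of the 9 let-7 miRNAs was called (median −0.01), although 3 were called higher in skin with miRNA-read scaling, where the median was 0.65. None of the 7 miR-29 family miRNAs, known to restrain collagen mRNAs, was called (median −0.57, and 0.04 with miRNA-read scaling). Among the 15 tested of the proliferation-linked miR-17-92 clusters 3 were higher in small intestine, miR-18a-5p (−2.09), miR-19a-3p (−1.91) and miR-92a-3p (−1.22), with a list median of −0.63 that was −0.03 with miRNA-read scaling. That count is near the 18.8% of all 584 miRNAs called higher there. miR-137-3p and miR-490-3p, in no list, were among the 15 largest folds: miR-137-3p was at 1.48 to 15.6 rpmm in skin and 75.8 to 188 rpmm in small intestine (−3.77 ± 0.11), and miR-490-3p at 0.123 to 1.68 and 8.89 to 71.2 rpmm (−4.09 ± 0.11).

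Imprinted miRNAs of the Dlk1-Dio3 locus, expressed from the maternal allele, were modestly higher in skin. Of 39 tested 13 were called higher in skin and 1, miR-323-3p (−1.15), higher in small intestine, with a median of 0.83 (25 and 0, and 1.30, with miRNA-read scaling). miR-379-5p had medians of 234 and 46.2 rpmm (2.04), miR-411-5p of 123 and 30.8 rpmm (2.05) and miR-299a-3p of 11.9 and 2.07 rpmm (2.13). Their summed level spanned 136 to 5055 rpmm in skin and only 206.45 to 747 rpmm in small intestine, and the wide skin range went with age and sex.

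**Figure D2:**
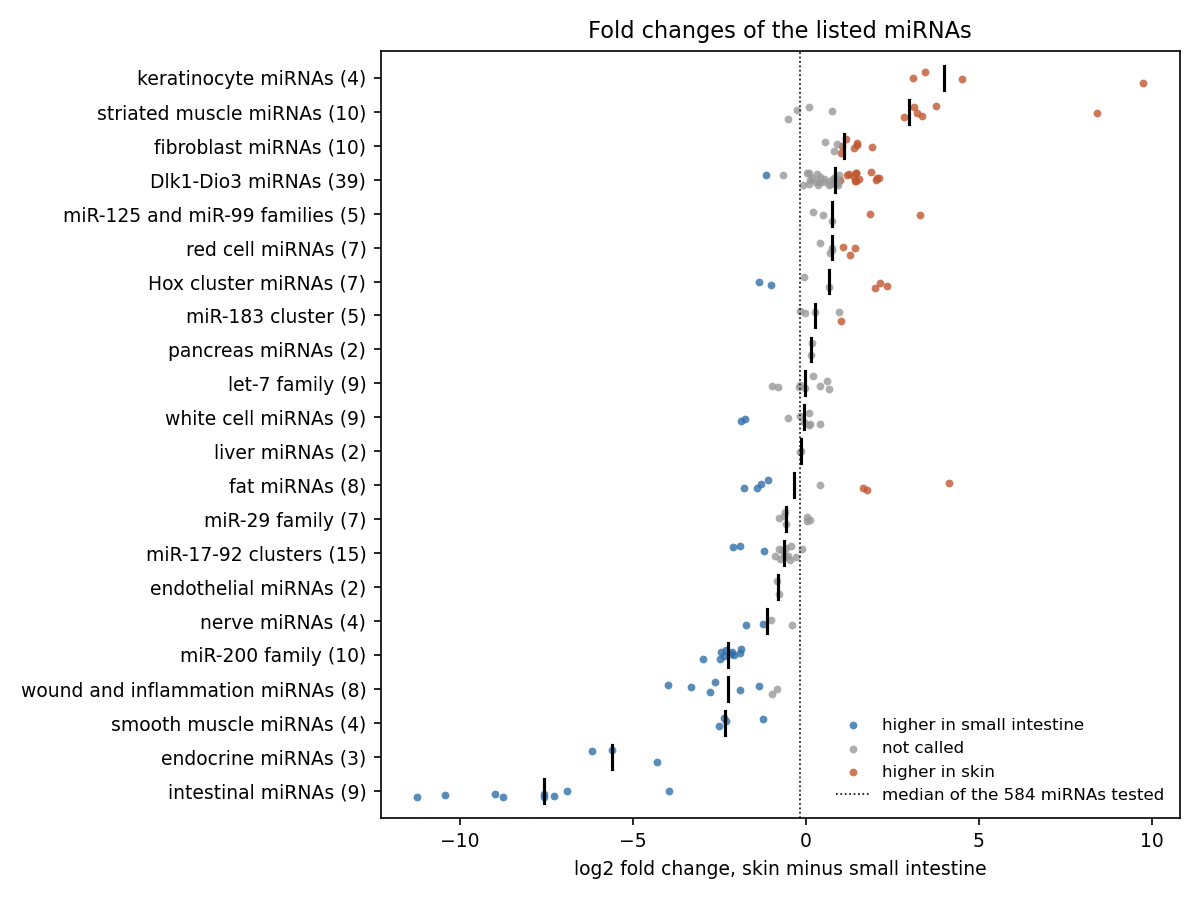
Log2 fold change, skin minus small intestine, of the tested miRNAs of each of the 22 lists (number tested in brackets); each point is a miRNA coloured by its call, black bars are list medians and the dotted line is the median of all 584 miRNAs (−0.17). The intestinal list sits farthest to the left (median −7.56) and the keratinocyte list farthest to the right (3.99), while let-7, white cell, liver and pancreas miRNAs lie near the dotted line.

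At the top of the range the tissues shared much of their miRNA pool. Both had miR-26a-5p (medians 18264 rpmm in skin and 17704 rpmm in small intestine), let-7c-5p, let-7a-5p, let-7f-5p and miR-143-3p among their 10 highest. The remainder of the skin list was miR-205-5p, miR-27a-3p (11708 rpmm, log2 fold change 1.77), let-7b-5p (10688 rpmm), miR-199a-3p and miR-199b-3p. In the intestine it was miR-192-5p, miR-215-5p, miR-194-5p, miR-378a-3p and miR-200c-3p, and miR-192-5p took up a median of 13.5% and miR-215-5p of 11.3% of the miRNA signal. The 10 highest together took up 47.96% (37.7 to 57.5%) in skin and 60.7% (45.99 to 65.95%) in small intestine. Among the 101 miRNAs with a mean of at least 100 rpmm in both tissues the smallest log2 fold changes were those of miR-130a-3p, miR-532-5p and let-7a-5p (−0.01 each), miR-107-3p (−0.03) and miR-29a-3p (0.03). let-7a-5p was at 2371 to 17495 rpmm in skin and at 2277 to 16481 rpmm in small intestine, nearly the same range.

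The ratio between the arms of a hairpin is taken within a library, but the pseudocount of 1 rpmm weighs on arms near that level. Of 169 hairpins with both arms tested, 15 (8.88%) differed between the tissues by at least 1 on the log2 scale, 5 towards the 5p arm in skin and 10 towards the 3p arm (4 in all with a pseudocount of 0.1 rpmm). The largest was miR-205, whose log2(5p + 1) minus log2(3p + 1) differed by 5.24 ± 0.16 (adjusted p = 2.28e-47), but the median of its 3p arm in small intestine was 0 rpmm and the difference was 2.17 with a pseudocount of 0.1 rpmm. Next were miR-193b (−2.39), miR-130b (1.61), miR-33 (−1.47), miR-18a (−1.46) and miR-32 (−1.43). None of the 15 had a median of at least 10 rpmm for each arm in both tissues, and with the smaller pseudocount miR-193b (−0.72), miR-130b (0.59), miR-18a (−0.55) and miR-32 (−0.85) were no longer called.

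The distance between the tissues moved with age for 34 miRNAs, 28 with a lower slope in skin than in small intestine (4.79%) and 6 with a higher one (1.03%). Slopes are log2 changes per 12 months from a linear term, and the test is the tissue-by-age term at an adjusted p under 0.05. Within skin 63 miRNAs fell (10.8%) and 27 rose (4.62%). Within small intestine limma called 0 miRNAs, with 47 at an unadjusted p under 0.05. Of the other RNAs 52 had different slopes in the tissues (1.58%).

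The clearest of these was miR-31-5p, which rose in skin. Its skin level was 86.6 to 178 rpmm in the 6 libraries at 3 months (median 139), 308 to 744 rpmm in the 6 at 15 months (median 417) and 753 to 2485 rpmm in the 4 at 27 months (median 1321), so that no library of 3 months reached those of 27 months. The medians in between were 546 rpmm at 6 months, 382 rpmm at 9, 662 rpmm at 12, 478 rpmm at 18 and 824 rpmm in the 2 libraries at 24 months, with 505 rpmm in the single library at 21 months. The level was thus higher by 6 months, without a steady course up to 21 months, and higher again at 24 and 27 months. In small intestine the medians were 4250 rpmm at 3 months, 4642 rpmm at 15 months, 5026 rpmm at 24 months and 1820 rpmm at 27 months, where 1 of 3 libraries was among those that stood apart. The slope was 1.17 in skin and −0.39 in small intestine, a difference of 1.57 ± 0.26 (adjusted p = 5.28e-05). Without the 4 intestinal libraries that stood apart it was 1.23 (adjusted p = 0.00209), and miR-31-5p was called under each alternative setting run. miR-31-3p (1.45) and miR-147-3p (1.25) went the same way, but without those 4 libraries the differences were 0.93 and 0.81 and not past the threshold (adjusted p = 0.0639 and 0.0579). Without 24 and 27 months they were 1.22 and 0.64 (adjusted p = 0.0974 and 0.249), and miR-31-3p was also not called with plate as a covariate (1.40, adjusted p = 0.0517) or by edgeR (0.84, adjusted p = 0.127). miR-211-5p (0.97), miR-203-5p (0.65) and miR-201-5p (0.35), named as the rest of these 6, also had higher slopes in skin. The keratinocyte sum in skin had a median of 24436 rpmm at 3 months and 36083 rpmm at 27 months, and its part in the miR-31-5p change was not tested.

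Of the 28 miRNAs with a lower slope in skin, 27 lie in the Dlk1-Dio3 span (chr12:109572004-109743784) by their RefSeq positions. The other, miR-485-5p, is on the Dlk1-Dio3 list but has no RefSeq entry by that name, so it was not counted in the span. miR-127-3p, from the antisense transcript to the retrotransposon gene Rtl1 and also named after its values had been seen, was at 122 to 1405 rpmm in skin at 3 months (median 779), at 58.7 to 164 rpmm at 15 months (median 105) and at 62.5 to 174 rpmm at 27 months (median 78.5). In small intestine its medians at those ages were 109, 68.7 and 83.1 rpmm, and the slope difference was −1.08 ± 0.25 (adjusted p = 0.00818). Skin therefore began high and came down close to the intestinal level. The miRNAs with the smallest p were miR-673-5p (−0.65 ± 0.12), miR-154-3p (−0.74), miR-540-3p (−0.96), miR-494-3p (−0.47) and miR-134-5p (−1.27 ± 0.28), all at low levels.

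All 59 tested miRNAs of the span had a negative slope difference, and 57 fell within skin. The summed level of the listed Dlk1-Dio3 miRNAs in skin had medians of 3363 rpmm at 3 months, 1238 rpmm at 6 months, 554 rpmm at 15 months and 569.5 rpmm at 27 months, and in small intestine 362 rpmm at 3 months and 333 rpmm at 27 months. Most of the fall was thus over by 15 months. The number called moved with the setting, while the sign hardly did. The 59 lie in a single locus and were measured in the same libraries, so their shared sign is not 59 separate results. In the main fit 27 of the 59 were called, and 57 in males only, 52 with miRNA-read scaling and 51 with edgeR. Median-ratio scaling and leaving out 24 and 27 months each gave 40, and a pseudocount of 0.1 rpmm gave 22. Without the 4 intestinal libraries that stood apart, whose Dlk1-Dio3 sum was 492.5 to 747 rpmm against a median of 299.9 rpmm, 3 miRNAs of the span were called (58 of 59 negative), and with plate as a covariate 1 (59 of 59 negative). The median slope difference over the 59 was −0.65, against −0.64 without those libraries, −0.56 with plate and −0.93 in males only. The age fit holds a common sex term for both tissues, although these miRNAs differed by sex in skin, as described below. Only males were present at 24 and 27 months, and the medians by age pool the sexes, so age and sex are partly mixed in them. The striated muscle sum in skin had medians of 39463 rpmm at 3 months, 6182 rpmm at 15 months and 35993 rpmm at 27 months. With it as a covariate 38 miRNAs of the span were called.

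**Figure D3:**
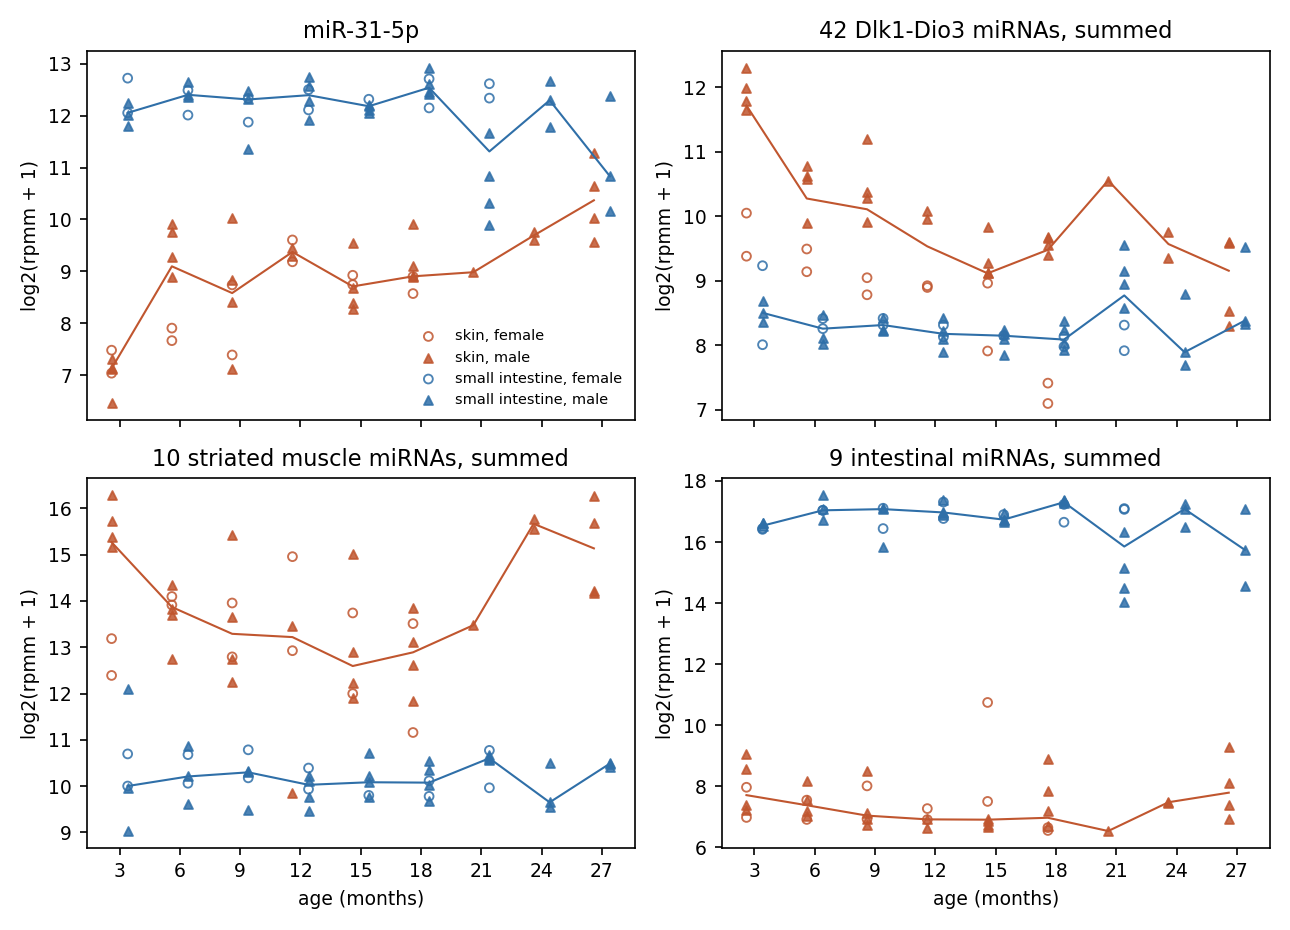
Levels by age, as log2(rpmm + 1), of miR-31-5p and of the summed Dlk1-Dio3, striated muscle and intestinal miRNAs; open circles are females, filled triangles males, and lines join the medians at each age. miR-31-5p in skin has a median of 139 rpmm at 3 months, uneven medians from 382 to 662 rpmm at 6 to 21 months and 1321 rpmm at 27 months, the Dlk1-Dio3 sum in skin drops from 3363 to 569.5 rpmm, and 4 small intestine libraries at 21 and 27 months lie low in intestinal miRNAs.

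Males and females differed in skin and not detectably in small intestine. At 3 to 21 months the signed difference, male minus female, was more positive in skin than in small intestine for 60 miRNAs (10.3%). It was more negative in skin for 32 (5.48%), by the tissue-by-sex term. Within skin 74 miRNAs were higher in males (12.7%) and 49 lower (8.39%), and within small intestine limma called 0, with 23 at an unadjusted p under 0.05. Of the other RNAs 129 had different sex differences (3.91%). Of the 60, 52 lie in the Dlk1-Dio3 span by their RefSeq positions and of the 32 none, and miR-485-5p, without such an entry, is among the other miRNAs of the 60.

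miR-376b-3p, a brain and placenta miRNA of the cluster, was at 1.22 to 10.5 rpmm in 12 female skin libraries (median 3.24) and at 8.36 to 88.5 rpmm in 23 male ones (median 20.2). The sexes hardly overlapped there, whereas the intestinal medians were 6.82 rpmm in females and 6.91 rpmm in males. The difference of differences was 2.18 ± 0.33 on the log2 scale (adjusted p = 1.36e-06), and male skin was higher on all 8 plates with both sexes, by 0.90 to 4.17. miR-411-3p was at 0.768 to 5.73 rpmm in female and 3.78 to 48.4 rpmm in male skin (1.88), and miR-380-3p at 0.348 to 5.21 and 4.63 to 30.1 rpmm (1.67). With miR-299a-3p (1.80), these 4 had the smallest p and were called under each alternative setting run, although edgeR was not among these for sex and miR-380-3p fell below the filter at a mean of 10 rpmm.

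Summed over the list, Dlk1-Dio3 miRNAs were at 136 to 1058 rpmm in female skin (median 491) and at 553 to 5055 rpmm in male skin (median 1083), and at medians of 305 and 299.97 rpmm in female and male intestine. Of the 39 tested, 36 were called in the tissue-by-sex term and all 39 were higher in male skin. Among miRNAs outside the locus, and chosen after their values had been seen, miR-34b-5p (1.37) and miR-34c-5p (1.33), known from ciliated and germ cells, had the same direction, while miR-708-5p (−1.41), miR-145a-5p (−0.96) and miR-375-3p (−0.81) had the opposite one. The count of the latter direction was 18 after scaling to miRNA reads and 6 after median-ratio scaling. The striated muscle sum had medians of 10494 rpmm in female and 11393 rpmm in male skin. The keratinocyte sum was 21718 to 41134 rpmm in females and 10365 to 30867 rpmm in males, lower in male skin on all 8 plates (by 0.21 to 0.85 on the log2 scale), and its part in the sex difference was not tested.

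**Figure D4:**
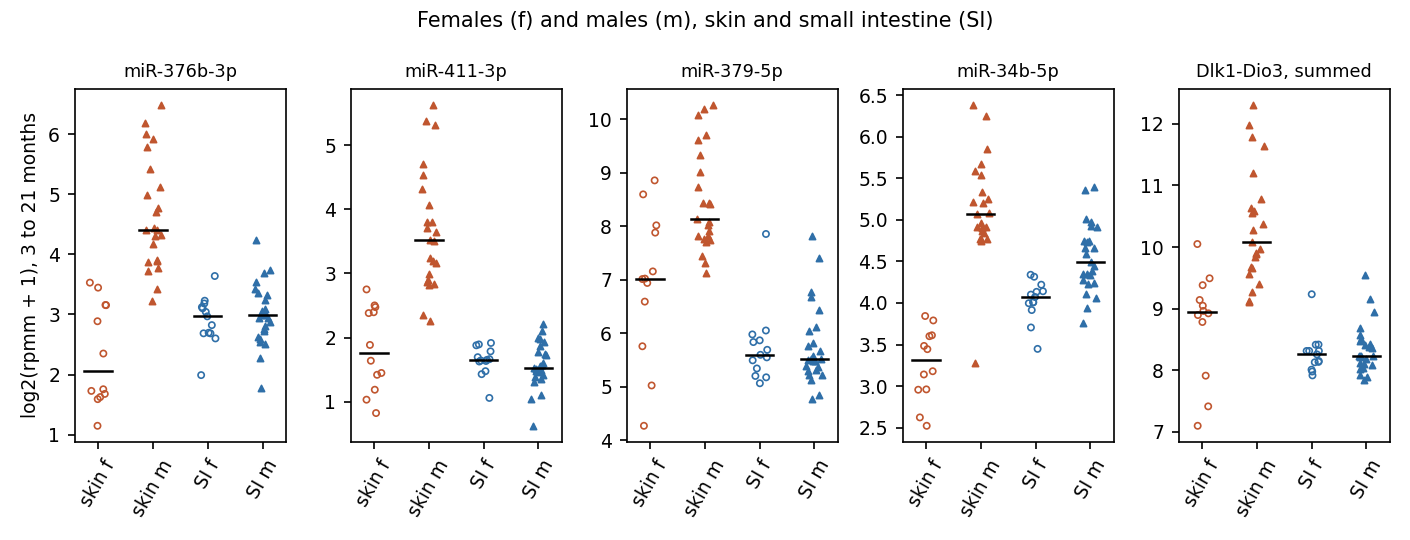
Levels in females (open circles) and males (filled triangles) at 3 to 21 months, as log2(rpmm + 1), in skin and small intestine (SI), with black bars at the medians. Male skin lies above female skin for miR-376b-3p (medians 20.2 and 3.24 rpmm), miR-411-3p, miR-379-5p, miR-34b-5p and the Dlk1-Dio3 sum, while the intestinal groups lie at nearly equal heights, miR-34b-5p being slightly higher in males on 7 of 7 plates.

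Fragments of longer RNAs also separated the tissues. Among 3299 RNAs other than miRNAs, 191 were higher in skin (5.79%) and 379 higher in small intestine (11.5%), which turned to 430 and 148 after scaling to miRNA reads, to 279 and 230 after median-ratio scaling and to 519 and 280 in edgeR. Skin held more tRNA signal, with 106 of 225 tested tRNAs called higher in skin and 2 higher in small intestine, tRNA-Asn-GTT-2-1 and tRNA-Asn-GTT-4-1, named after their values had been seen. Small intestine held more snoRNA and snRNA signal, with 182 of 578 snoRNAs and 163 of 660 snRNAs called higher there. The snRNA count was 0 with miRNA-read scaling, where 8 snRNAs were higher in skin, so that direction rests on the scaling. snoRNA copies with values identical in every library inflate these counts, and counted once 80 of 424 distinct snoRNAs were higher in small intestine.

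Several of the largest folds belonged to host transcripts of miRNAs. Mir205hg, the miR-205 host gene, was at 6984 to 38456 rpmm in skin and at 6.36 to 108 rpmm in small intestine (9.75 ± 0.16), a median of 1.00 times the summed arms of miR-205, whose hairpin lies within it. Gm49890 (−3.28) spans the Mir31 hairpin with a median ratio of 1.00, and both Gm26871 transcripts (−3.76 and −3.72) the Mir137 hairpin with 1.00 and 1.02, so that the reads of these transcripts and those of the mature miRNAs cannot be told apart in these values. Gm28653 (3.27) overlaps the hairpins of Mir206 and Mir133b, at a median of 100.06 and 2.05 times their summed arms. The ratio to miR-206 differed widely between the tissues, so its median describes neither. Gm28653 had medians of 3659 rpmm in skin and 381 rpmm in small intestine, and miR-206-3p of 766 and 0.921 rpmm. With the striated muscle sum as a covariate Gm28653 was not called in limma (0.04, adjusted p = 0.85). That sum holds miR-206-3p and miR-133b-3p, whose hairpins Gm28653 overlaps, so this setting cannot test its fold. The highest tRNA folds were those of near-identical copies of tRNA-Cys-GCA, of which tRNA-Cys-GCA-24-1 was at 48.7 to 609 rpmm in skin (median 141) and at 6.19 to 81.3 rpmm in small intestine (median 13.7), with a log2 fold change of 3.11 ± 0.17. In the other direction stood the lncRNAs Gm42031 (−2.52) and Gm4316 (−2.38) and the snoRNAs Snord64 (−2.26), Gm23187 (−2.05) and Gm50451 (−1.92).

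As shares of a library's summed signal, tRNA fragments made up 34.8 ± 13.3% in skin (SD, n = 41) and 12.8 ± 3.57% in small intestine (SD, n = 44), 21.99 percentage points more in skin. miRNAs made up 13.9 ± 4.64% and 22.9 ± 4.67%, snoRNAs 10.1 ± 3.65% and 16.9 ± 3.95%, and snRNAs 8.65 ± 1.99% and 16.7 ± 4.35%. Each of these 4 differences had a p of 1e-05 in a two-sided permutation test of 100000 resamples, the smallest they can give, and an adjusted p of 1.6e-05 over 8 classes. rRNA (24.1 ± 9.24% and 21.8 ± 8.56%, adjusted p = 0.28) and lncRNA (8.38 ± 3.08% and 8.77 ± 1.63%, adjusted p = 0.47) did not pass the permutation test. The tRNA share of skin ran from 8.27 to 65.3%, wider than the 7.29 to 23.7% of small intestine, and part of its range overlapped. RNAs with identical values were each counted in these shares. Counted once, rRNA made up means of 10.1% in skin and 9.20% in small intestine. In the same order tRNA made up 42.1 and 15.2%, miRNAs 18.6 and 31.4%, snoRNAs 12.1 and 20.6%, and snRNAs 5.71 and 11.2%. Shares of one library sum to a fixed total, so a rise in one class lowers the others.

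**Figure D5:**
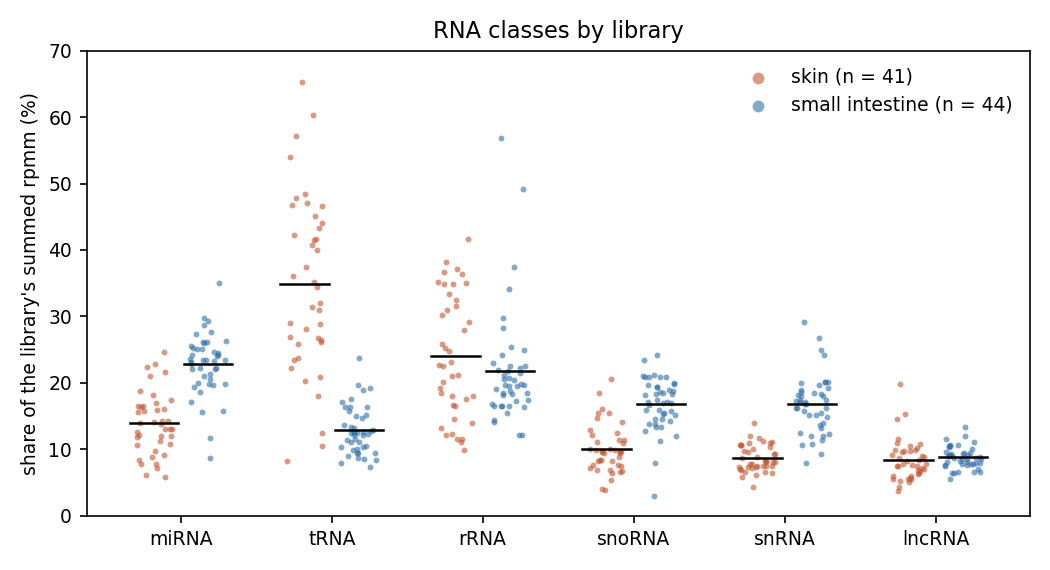
Share of each library's summed rpmm taken by 6 RNA classes, in percent, in skin (41 points, left) and small intestine (44 points, right), with black bars at the means. tRNA fragments are higher and more spread in skin (mean 34.8 against 12.8%), miRNAs, snoRNAs and snRNAs are higher in small intestine, and rRNA and lncRNA lie together. RNAs with identical values are each counted.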

How the data were processed

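Small RNA was sequenced from dorsal skin and duodenum. The deposited values are a signal in reads per 1000000 mapped reads (rpmm) for 7883 RNAs, made by the authors with miRMaster and Bowtie against miRBase, GtRNAdb, RNAcentral and Ensembl (build mm10), with at least 2 M aligned reads required of a library (M stands for 1000000). A read can count for several RNAs, so a library sums to over 1000000 rpmm. Low values were whole multiples of 1 read for 99.1% of miRNA values and 100.0% of the others (within 0.05 reads), and edgeR 4.0.16 was run on the recovered reads as an alternative, calling 280 miRNAs and 799 other RNAs. 3 columns of the aging table were not used. Groups, ages and sexes came from the labels. RNAs at 1 rpmm or more in at least 10% of the libraries of either tissue were tested on log2(rpmm + 1) with limma 3.58.1 (R 4.3.3), Benjamini-Hochberg over all RNAs tested; fold changes on this scale understate those of low RNAs. Tissue was tested with age as a factor and sex, then tissue-by-age with sex, and tissue-by-sex, with an age factor, up to 21 months. Class shares used scipy 1.17.1. GENCODE release 21 gave classes and positions, and RefSeq the mature sequences.

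The members and lists were chosen with earlier results of these data known. Named were list members, the 15 largest called folds each way with a mean of at least 10 rpmm in the higher tissue, the 10 highest medians per tissue, up to 8 miRNAs for age and 4 for sex by smallest p, 6 hairpins, 8 other RNAs each way, miRNAs above the other 14 tissues in both, and the 5 smallest folds. Alternatives were the pseudocount, filter, scaling, edgeR, limma treat, plate, replicate block, males only, ages, identical RNAs counted once, and leaving out each library. Replicates are separate samples by the labels, and mouse identity is not given there. The scripts were tested on simulated data.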

Additional observations from a re-analysis of the deposited data

Results flagged for a closer look

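Slopes with age differed between the tissues for 34 miRNAs, of which the 8 with the smallest p are given here as the skin slope minus the small intestine slope on the log2 scale per 12 months. They were 1.57 for miR-31-5p, 1.45 for miR-31-3p and 1.25 for miR-147-3p, which rose in skin relative to small intestine, and −0.65 for miR-673-5p, −0.74 for miR-154-3p, −0.96 for miR-540-3p, −0.47 for miR-494-3p and −1.27 for miR-134-5p, which fell. In small intestine the highest median at any age was 0.116 rpmm for miR-494-3p, 0.540 rpmm for miR-673-5p and 0.975 rpmm for miR-154-3p. These lie under the pseudocount of 1 rpmm, which flattens their slopes there. The age term was tested directly by limma. With plate as a covariate 5 of the 8 no longer passed, and without the 4 small intestine libraries low in intestinal miRNAs 4 did not. miR-31-5p passed in both settings. Why they differed was not tested.

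Differences between the sexes in skin minus those in small intestine were 2.18 for miR-376b-3p, 1.88 for miR-411-3p, 1.80 for miR-299a-3p and 1.67 for miR-380-3p on the log2 scale, by the tissue-by-sex term. All 4 lie in the Dlk1-Dio3 span and passed under each alternative setting run for them, edgeR not included.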

How the results depend on the processing

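Calls between the tissues kept their direction for each named miRNA except miR-133b-3p (−0.26) and miR-133a-3p (−0.45) with the striated muscle sum as a covariate, a sum they belong to. The alternatives without the libraries low in intestinal miRNAs and with the muscle covariate were chosen after the data had been seen.

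miRNAs higher in skin were 77, and 133 with miRNA-read scaling, 179 with edgeR and 40 with the muscle covariate. Those higher in small intestine were 110, and 65 with miRNA-read scaling and 176 with the muscle covariate. Other RNAs were 570, and 862 with a pseudocount of 0.1 rpmm and 296 with limma treat. Of these, those higher in skin were 191, and 430 with miRNA-read scaling, 519 with edgeR and 103 with limma treat. Those higher in small intestine were 379, and 621 with the smaller pseudocount, 212 at a mean of at least 10 rpmm, 148 with miRNA-read and 230 with median-ratio scaling, 221 with identical RNAs once and 193 with limma treat.

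Age slope differences were 34, and 18 at a mean of at least 10 rpmm, 3 with plate as a covariate, 74 in males only, 61 with miRNA-read scaling, 60 with edgeR and 4 without the libraries low in intestinal miRNAs. Those lower in skin were 28, and in the same order 11, 1, 61, 58, 57 and 3, besides 47 without 24 and 27 months and 45 with median-ratio scaling. Those higher in skin were 6, and 2 with plate, 13 in males only, 1 without 24 and 27 months, 3 with miRNA-read scaling, 3 with edgeR and 1 without the libraries low in intestinal miRNAs. Sex differences were 92, and 52 at a mean of at least 10 rpmm. Those higher in skin were 60, and 29 at that mean, and those lower were 32, and 18 with miRNA-read and 6 with median-ratio scaling. Arm differences were 15, and 4 with the smaller pseudocount and 2 at a mean of at least 10 rpmm. The cause of these shifts was not tested.

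With the replicate block the counts were 187 miRNAs, 570 other RNAs, 34 age slope differences and 15 arm differences, as without it, and 91 sex differences. The tissues share 34 numbers, of which 4 pairs match in age and sex and 7 correlate over 0.1 (median −0.05), so the numbers do not pair samples.

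Leaving out 1 library at a time gave 184 to 190 miRNAs (74 to 80 higher in skin, 106 to 113 in small intestine), 547 to 628 other RNAs (174 to 219 and 371 to 417), 27 to 50 age slope differences (22 to 43 lower, 4 to 10 higher), 83 to 112 sex differences (57 to 63 higher, 26 to 50 lower) and 15 to 17 arm differences. Without skin replicate 25, a male of 27 months, 43 slopes were lower. Without small intestine replicate 24, a female of 3 months, 10 slopes were higher and 50 sex differences lower, and without skin replicate 14, a female of 18 months, also 50.

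At 1 library in skin at 21 months and no females at 24 and 27 months, the late slopes rest on few mice. An alternative without libraries nearest another tissue was not run, since none was.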
